A study of Mus musculus with 2 samples.

Results

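A set of 10 immediate early genes of the EGR, IER, DUSP and NR4A families were followed in mouse embryonic stem (ES) cells after inhibition of topoisomerase II. These genes, Egr1, Egr2, Egr3, Ier2, Ier3, Ier5, Dusp1, Dusp2, Dusp5 and Nr4a1, were chosen by name, with earlier results of these data known. All 10 were found among the 21937 genes of the deposited table and among its 18759 genes with reads. The cells were wild-type ES cells of the strain 129Sv-C57Bl/6 kept without feeder cells. From 32 h after seeding they received 500 nM ICRF-193, which blocks the catalytic cycle of topoisomerase II, or DMSO as the control, in both cases for 16 h. RNA was sequenced from 3 replicates a group. For each gene the table holds 1 mean per group, in normalised reads (the reads of a library over that library's size factor), with a fold change and a p-value from the authors' DESeq test. Whole reads of each library were recovered from those means, and the libraries are called A, B and C within a group in order of decreasing size factor, which is no replicate number. Nothing in the labels says whether replicates were separate cultures, so p-values measure the spread between these libraries, which may be technical.

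Immediate early genes are transcribed within minutes of a growth factor, stress or membrane signal, without new protein synthesis. MAP kinases such as ERK and p38 reach their promoters through the serum response factor SRF with its ETS-type partners and through CREB and ATF1, and their transcripts are short-lived. EGR proteins are zinc finger transcription factors held back by the corepressors NAB1 and NAB2, NR4A1 is an orphan nuclear receptor, and DUSP1, DUSP2 and DUSP5 are nuclear phosphatases that switch MAP kinases off again. In ES cells ERK signalling downstream of FGF4 is known for its part in the exit from the naive state.

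The libraries held between 26212392 and 39875454 recovered reads, or 29530712 to 47463399 with an estimate added for genes left unresolved. Each of the 10 genes had a single solution for its reads in both groups. Libraries A stood apart from B and C in both groups. Within DMSO, the median squared difference between B and C was 2.63 times what counting error gives, against 25.7 and 29.9 times for A with B and with C. Within ICRF-193 it was 2.84 times for B and C, against 21.6 and 25.1 times. Of 8 fibroblast or feeder markers, 7 had resolved reads, and their sum was 17192 normalised reads in DMSO-A against 1675 to 1709 in DMSO-B and DMSO-C, and 19608 in ICRF-193-A against 2321 to 2966. Col1a1, a collagen gene, made up most of it, while Lum, a fibroblast gene, was at 0 or 1 read in every library. The 7 primitive endoderm markers summed to 4190.0 in DMSO-A and 4243 in ICRF-193-A, and to between 919 and 1944 in the other 4 libraries. The 4 resolved ES cell markers, Nanog, Zfp42, Dppa5a and Utf1, summed to 42275 to 48778 in DMSO and 27647 to 33441 in ICRF-193, and the 7 trophectoderm markers to 17644 to 19770.4 and 25235 to 36246. The keratin genes Krt8 and Krt18 made up most of the trophectoderm sum. The 5 mesoderm markers summed to 387 to 492 in DMSO and 610.5 to 757 in ICRF-193. What part these other transcripts had in the values below was not tested. In bulk RNA, fewer cells of a type and less RNA per cell cannot be told apart.

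The comparison asks how far these genes changed when topoisomerase II was inhibited. Dusp2, a phosphatase of activated ERK and p38, was the only member past an adjusted p of 0.05 in the authors' deposited table, where it rose 2.79-fold. The other 9 did not pass there: 8 had deposited fold changes between 1.15 and 3.34, and Ier2 was at 0.710. One call in 10 stands beside a background of 5.97% of all genes called higher and 1.26% called lower by the same test. At an unadjusted p under 0.05 the members called were 5 higher (Egr3, Ier5, Dusp1, Dusp2 and Nr4a1) and 0 lower, against 11.5% and 5.38% of all genes. The median log2 fold change of the 10 members in the deposited table was 0.58, against 0.0081 for all genes with reads. Because the members were chosen with earlier results of these data known, these comparisons with all genes are description and no test.

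The recovered libraries show which of these differences exceeded the spread. In 6 of the 10 members every ICRF-193 library lay above every DMSO library (Egr2, Egr3, Ier5, Dusp1, Dusp2 and Nr4a1), a state shared by 17.9% of all resolved genes. None lay wholly below, against 15.3% of genes, and the libraries of Egr1, Ier2, Ier3 and Dusp5 overlapped. A limma-voom fit of the recovered reads by group alone called 3 members higher, Egr3, Dusp2 and Nr4a1, where 9.84% of 14870 genes were called higher, and 0 lower, where 5.88% were. With a term for the split between the 2 libraries A and the other 4, limma-voom called 6 members higher (Egr3, Ier5, Dusp1, Dusp2, Dusp5 and Nr4a1) and Ier2 lower, but then 27.2% of all genes were higher and 32.4% lower. That split was drawn from these same reads and no label gives a batch, so its p-values here and below may be too small. Without both libraries A it called 5 of 9 tested members higher, against 24.1%, and 1 lower, against 29.6%; Egr3 then had too few reads to be tested. Leaving out 1 library at a time, limma-voom called 4 members higher and 1 lower without DMSO-A (background 11.8% and 9.32%), 1 and 0 without DMSO-B (3.32% and 0.811%), and 1 and 0 without DMSO-C (4.18% and 1.39%). It called 2 and 0 without ICRF-193-A (8.36% and 3.85%), 0 and 0 without ICRF-193-B (2.66% and 0.609%), and 0 and 0 without ICRF-193-C (3.12% and 0.827%). Where 1 library A was left out, the other group kept its own, so the difference of A and the treatment cannot be told apart there. Members called higher were 2 without the low-count filter (background 8%), 3 with upper quartile scaling (11%) and 5 with total read scaling (12.7%). None was lower in these 3 fits (3.97%, 3.96% and 2.64%).

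**Figure D1:**
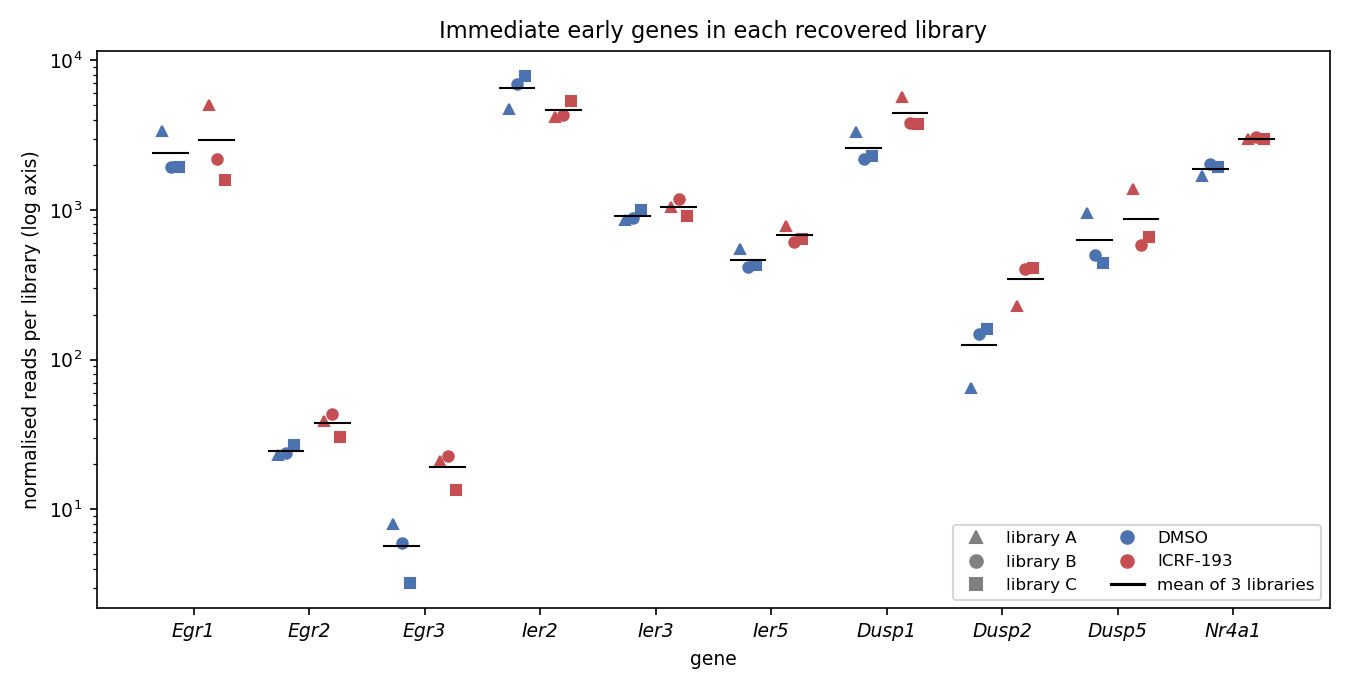
Normalised reads of the 10 genes in each recovered library (log axis), blue for DMSO and red for ICRF-193, with triangles, circles and squares for libraries A, B and C and a bar at the mean of 3 libraries. Dusp2, Dusp1, Ier5, Nr4a1, Egr2 and Egr3 are separated by group, whereas Egr1 and Dusp5 differ more between library A and the rest than between groups.

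**Figure D2:**
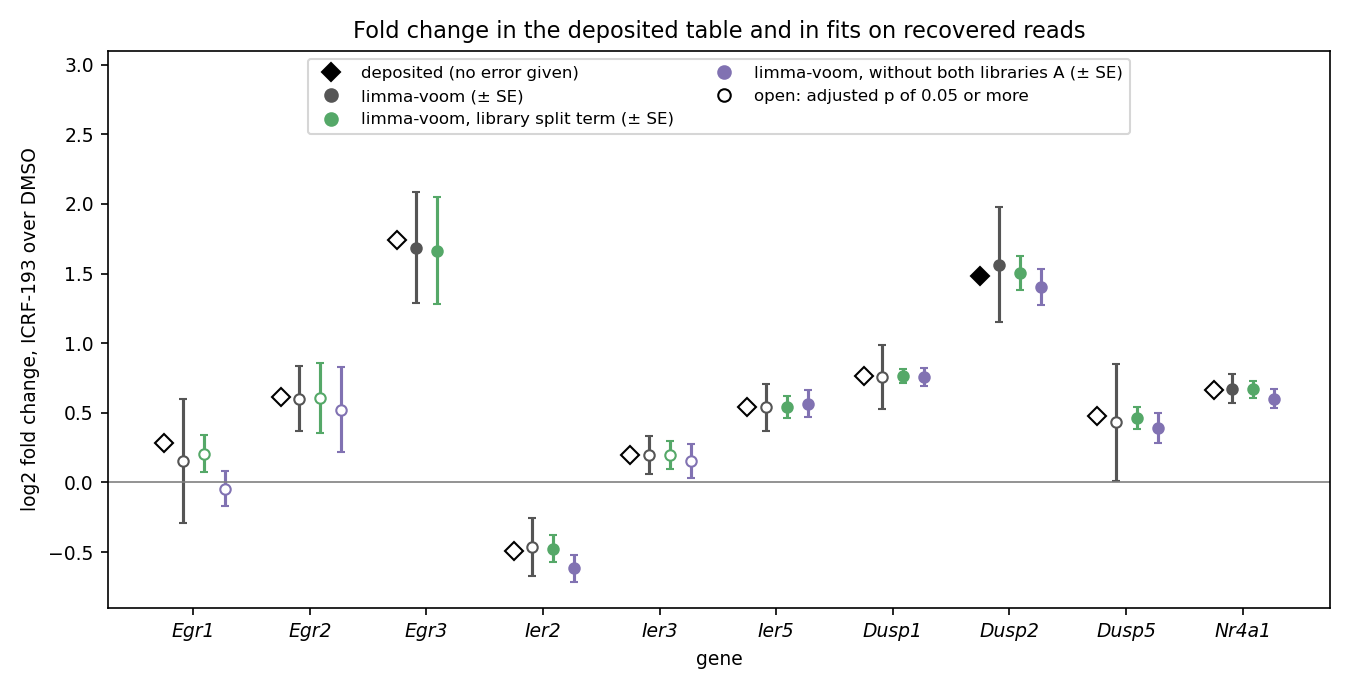
Log2 fold change of each gene (ICRF-193 over DMSO) in the deposited table (diamonds) and in 3 limma-voom fits on recovered reads (circles, ± SE); filled symbols passed an adjusted p of 0.05. For most genes the fits differ less in the size of the change than in its error, which is widest for Egr1, Dusp5, Dusp2 and Egr3 in the fit by group alone.

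The 3 DUSP members differed in how firmly they changed. Dusp2 is described first, and the 250 bases before the RefSeq start are shown for the 3 phosphatase genes and for Nr4a1, since between them they hold the signal-response motifs described further on. The sequences are from RefSeq on GRCm38.p6, at chr2:127335909-127336158 (forward strand) for Dusp2, chr17:26508473-26508722 (reverse strand) for Dusp1, chr19:53528895-53529144 (forward strand) for Dusp5 and chr15:101266596-101266845 (forward strand) for Nr4a1. They are written along the gene, with capitals on the CArG box, the core of the serum response element, on TGACG, the core of the cAMP response element bound by CREB and ATF1, and on GCGGGGGCG, a form of the EGR element, each on either strand.
Dusp2: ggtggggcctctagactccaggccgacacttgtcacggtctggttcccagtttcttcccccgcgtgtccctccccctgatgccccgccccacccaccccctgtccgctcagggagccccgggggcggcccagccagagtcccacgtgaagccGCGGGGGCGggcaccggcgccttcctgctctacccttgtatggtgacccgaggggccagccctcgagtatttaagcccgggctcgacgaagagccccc
Dusp1: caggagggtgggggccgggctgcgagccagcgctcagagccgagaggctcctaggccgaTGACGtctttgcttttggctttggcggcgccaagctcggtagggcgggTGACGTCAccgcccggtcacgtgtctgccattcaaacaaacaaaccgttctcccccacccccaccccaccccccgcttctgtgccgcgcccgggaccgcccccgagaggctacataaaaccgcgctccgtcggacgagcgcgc
Dusp5: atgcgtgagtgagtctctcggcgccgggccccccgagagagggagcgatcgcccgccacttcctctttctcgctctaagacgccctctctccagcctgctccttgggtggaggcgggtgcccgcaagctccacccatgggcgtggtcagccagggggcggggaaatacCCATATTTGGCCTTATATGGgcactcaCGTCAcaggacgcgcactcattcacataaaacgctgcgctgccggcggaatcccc
Nr4a1: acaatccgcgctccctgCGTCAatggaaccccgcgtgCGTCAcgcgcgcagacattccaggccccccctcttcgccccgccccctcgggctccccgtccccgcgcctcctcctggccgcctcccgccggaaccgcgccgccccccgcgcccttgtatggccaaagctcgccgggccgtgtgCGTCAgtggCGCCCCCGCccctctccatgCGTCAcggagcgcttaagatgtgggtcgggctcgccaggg

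Dusp2 was at 64.5, 149 and 160 normalised reads in DMSO-A, DMSO-B and DMSO-C and at 227, 405 and 411 in the ICRF-193 libraries A, B and C. Every treated library was above every control library, and library A was the low one of each group, at 0.418 of the mean of B and C in DMSO and 0.556 in ICRF-193. The means were 124 ± 52.2 and 348 ± 105 (SD, n = 3 a group), and the authors' deposited table gives a log2 fold change of 1.48 (adjusted p = 0.00799). The ratio was 3.52 between the libraries A and 2.64 between the means of B and C. The limma-voom fit gave 1.56 ± 0.41 (SE; adjusted p = 0.0491), 1.50 ± 0.12 with the split term (adjusted p = 3.83e-06) and 1.40 ± 0.13 without the libraries A (adjusted p = 1.17e-05). Leaving out any single library other than ICRF-193-A ended the limma-voom call (adjusted p from 0.0563 to 0.166), with log2 values from 1.11 to 1.79; the lowest was the value without DMSO-A. The limma-voom call was also lost without the low-count filter (log2 1.57, adjusted p = 0.0511).

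Dusp1, which inactivates p38 and JNK as well as ERK, was at 3306.5, 2177 and 2297 normalised reads in DMSO-A, DMSO-B and DMSO-C and at 5692, 3799 and 3753 in the ICRF-193 libraries in the same order. The groups did not overlap, and A was the high library of both. The means were 2594 ± 620.4 and 4415 ± 1107 (SD, n = 3 a group), with a deposited log2 fold change of 0.77 in the authors' deposited table (adjusted p = 0.137). The ratio was 1.72 between the libraries A and 1.69 between the means of B and C. Limma-voom gave 0.76 ± 0.23 (SE; adjusted p = 0.0722), and with the split term 0.77 ± 0.05 (adjusted p = 8.93e-07).

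Dusp5, a phosphatase specific to ERK, was at 949.6, 497 and 445 normalised reads in DMSO-A, DMSO-B and DMSO-C and at 1386, 583 and 659 in the ICRF-193 libraries. DMSO-A lay above ICRF-193-B and ICRF-193-C, so the groups overlapped, although B and C alone were separated by group. Library A was 2.02 times the mean of B and C in DMSO and 2.23 times in ICRF-193. The means were 631 ± 277 and 876 ± 444 (SD, n = 3 a group), and the deposited log2 fold change in the authors' deposited table was 0.47 (adjusted p = 0.863). Limma-voom by group gave 0.43 ± 0.42 (SE; adjusted p = 0.526), against 0.46 ± 0.08 with the split term (adjusted p = 6.38e-04) and 0.39 ± 0.11 without the libraries A (adjusted p = 0.0105). Without ICRF-193-A, but with DMSO-A kept, limma-voom gave 0.04 ± 0.35 (adjusted p = 0.956). An annotated gene on the opposite strand overlaps 547 exonic bases of Dusp5 and whether the kit kept strand is not given in the sources used here, so reads of the pair cannot be told apart.

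Of the EGR genes, Egr1 was the most abundant. Egr1 was at 3357, 1929 and 1925 normalised reads in DMSO-A, DMSO-B and DMSO-C and at 4989.8, 2200.2 and 1580.1 in the ICRF-193 libraries. ICRF-193-C was the lowest of all 6 and ICRF-193-A the highest. Library A over the mean of B and C was 1.74 in DMSO and 2.64 in ICRF-193. The means were 2404 ± 826.1 and 2923 ± 1816 (SD, n = 3 a group), with a log2 fold change of 0.28 in the authors' deposited table (adjusted p = 0.967). The ratio was 1.49 between the libraries A and 0.981 between the means of B and C, and without both libraries A limma-voom gave -0.04 ± 0.12 (SE; adjusted p = 0.786). A limma-voom test of whether the change differed between A and the rest gave a log2 difference of 0.61 for Egr1 (adjusted p = 0.430).

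Egr2 and Egr3, known for their parts in hindbrain and muscle spindle development and in lymphocytes, were the members with the fewest reads. Egr2 was at 23.1, 23.8 and 27.0 normalised reads in DMSO-A, DMSO-B and DMSO-C and at 39.1, 43.5 and 30.3 in the ICRF-193 libraries. Its groups did not overlap, but the authors' deposited table gives 0.61 (adjusted p = 0.534), and limma-voom 0.60 ± 0.23 (SE; adjusted p = 0.134), 0.61 ± 0.25 with the split term (adjusted p = 0.0563). Egr3 was counted with 10, 6 and 3 reads in DMSO-A, DMSO-B and DMSO-C and with 21, 22 and 12 in the ICRF-193 libraries, or 5.72 ± 2.37 and 19.1 ± 4.97 normalised reads (SD, n = 3 a group). All 3 treated libraries were above all 3 controls. The deposited log2 fold change of 1.74 was the highest of the 10 members in the authors' deposited table and did not pass there (adjusted p = 0.0988), while limma-voom called it at 1.69 ± 0.40 (SE; adjusted p = 0.0360). Egr3 passed the low-count filter of 10 reads in 3 libraries through its treated libraries, so the change itself let it into that test; without the filter the limma-voom value was 1.69 ± 0.41 (SE; adjusted p = 0.0429). Over the limma-voom alternatives the adjusted p of Egr3 ran from 0.00352 to 0.131; the call was lost on leaving out any single library but DMSO-A.

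Among the IER genes, Ier2 was the only member with a lower mean after ICRF-193. Ier2, a nuclear protein of the early growth factor response, was at 4743, 6942 and 7839 normalised reads in DMSO-A, DMSO-B and DMSO-C and at 4187, 4322 and 5361 in the ICRF-193 libraries. DMSO-A fell within the treated range, whereas DMSO-B and DMSO-C were above all treated libraries. The means were 6508 ± 1593 and 4623 ± 642 (SD, n = 3 a group), and the authors' deposited table gives -0.49 (adjusted p = 0.371). Limma-voom gave -0.46 ± 0.21 (SE; adjusted p = 0.185), and a lower call with the split term at -0.47 ± 0.10 (adjusted p = 0.00187) and without the libraries A at -0.62 ± 0.10 (adjusted p = 3.93e-04). The ratio was 0.883 between the libraries A and 0.655 between the means of B and C; the limma-voom test of that difference gave an adjusted p of 0.558.

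Ier5, a regulator of the heat shock factor HSF1, was at 550.0, 417 and 428 normalised reads in DMSO-A, DMSO-B and DMSO-C and at 783, 612 and 637 in the ICRF-193 libraries. The groups did not overlap, and A was the high library of both. The means were 465 ± 74.0 and 677 ± 92.3 (SD, n = 3 a group), with a log2 fold change of 0.54 in the authors' deposited table (adjusted p = 0.253), while limma-voom gave an adjusted p of 0.0764 by group and 1.36e-04 with the split term. Ier3, a stress-induced protein linked to ERK signalling and cell survival, was at 859.7, 879.9 and 996 in DMSO and at 1042, 1186 and 910.1 in ICRF-193 for A, B and C. Its groups overlapped, with ICRF-193-C below DMSO-C. The log2 fold change of Ier3 in the authors' deposited table was 0.20 (adjusted p = 0.809), and limma-voom with the split term gave 0.20 ± 0.10 (SE; adjusted p = 0.104).

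Nr4a1 was the member with the least spread among treated libraries relative to its mean. It was at 1691, 2040 and 1939 normalised reads in DMSO-A, DMSO-B and DMSO-C and at 2957, 3072 and 2960.4 in the ICRF-193 libraries. The groups were apart, and library A was close to B and C in both, at 0.850 of their mean in DMSO and 0.980 in ICRF-193. The means were 1889.9 ± 179 and 2997 ± 65.5 (SD, n = 3 a group), and the authors' deposited table gives a log2 fold change of 0.66 that did not pass (adjusted p = 0.0677). Limma-voom called Nr4a1 higher at 0.67 ± 0.10 (SE; adjusted p = 0.0104). Of 12 limma-voom alternatives 10 called it, with adjusted p from 6.91e-06 to 0.0670; it was lost without ICRF-193-B or without ICRF-193-C (adjusted p = 0.0670 and 0.0585).

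Per kilobase of exon, Ier2 was the highest member in both groups, at 4276 normalised reads per kb in DMSO and 3037 in ICRF-193. Dusp1 followed with 1093 and 1860.4, then Ier3 with 806 and 925 and Nr4a1 with 705 and 1119. In DMSO Ier3 was above Nr4a1 and in ICRF-193 below it. Egr1 was at 536 and 652 per kb, Dusp5 at 255 and 354, Ier5 at 142 and 207, and Dusp2 at 76.9 and 215. Egr2 at 7.73 and 11.8 and Egr3 at 1.39 and 4.66 per kb stood far below the rest. Neighbours in this order whose libraries overlapped were Ier3 with Nr4a1 and Nr4a1 with Egr1 in DMSO. In ICRF-193 they were Ier3 with Egr1, Egr1 with Dusp5, Dusp5 with Dusp2, and Dusp2 with Ier5; the libraries of the other neighbours did not overlap. Lengths are those of annotated exons and not of the transcripts these cells make.

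For most members library A lay on the same side of B and C in both groups, though not always at a similar distance. Egr2 changed side, with a log2 ratio of A to the mean of B and C of -0.14 in DMSO and 0.084 in ICRF-193. The members Egr1, Egr3, Ier5, Dusp1 and Dusp5 (5 in all) were higher in A than in the mean of B and C in DMSO and in ICRF-193, and 4 members, Ier2, Ier3, Dusp2 and Nr4a1, were lower in both. The share of all genes with the same direction in both groups was not counted. These counts therefore show no trait particular to the members. The log2 ratio of A to the mean of B and C ran from -1.26 for Dusp2 to 1.01 for Dusp5 in DMSO, and from -0.85 for Dusp2 to 1.40 for Egr1 in ICRF-193. The libraries A, with the higher Egr1, Dusp1 and Dusp5 levels, were also those with the larger fibroblast and endoderm marker sums given above. The fibroblast sum was carried by collagen genes, and not every marker followed it: Thy1 was lower in A than in B and C in both groups (185 against 281 and 311 normalised reads in DMSO, 353 against 381 and 469 in ICRF-193). Dcn was lower in A in DMSO as well, at 8.76 where B and C had 12.9 and 15.1. The part of these transcripts in the members' values was not tested. A limma-voom test of a treatment effect that differs between A and the rest called 0 of 14870 genes (1161 at an unadjusted p under 0.05, the members Egr1 and Ier2 among them); with 1 library A a group it cannot show that effects were equal.

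**Figure D3:**
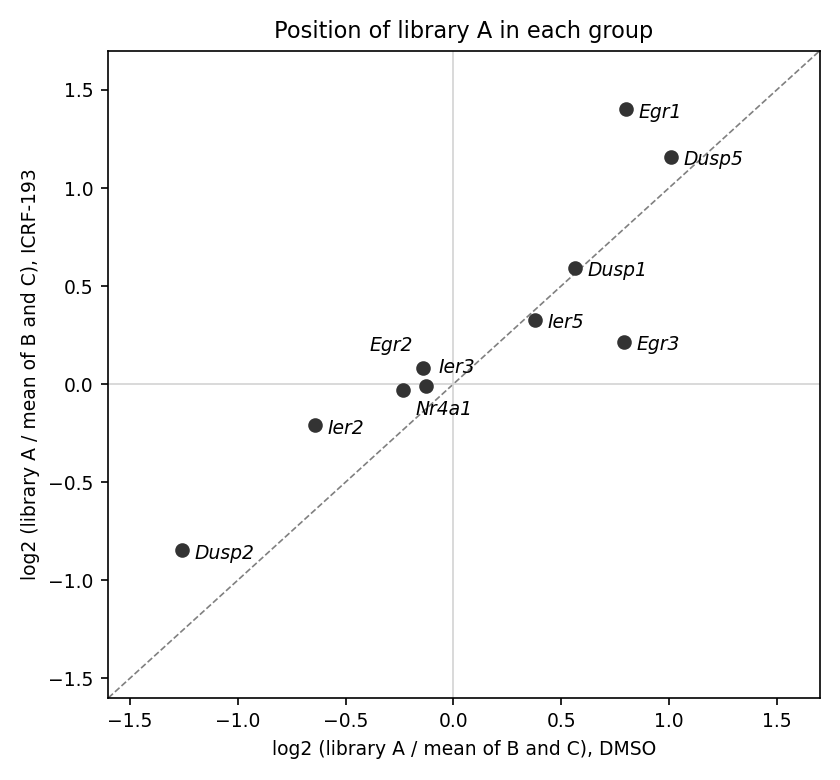
Log2 ratio of library A to the mean of libraries B and C in DMSO (horizontal axis) and ICRF-193 (vertical axis), 1 point a gene, with a dashed line where both are equal. Dusp2 sits at -1.26 and -0.85 and Dusp5 at 1.01 and 1.16, each on the same side in both groups. Nr4a1 goes from -0.23 to -0.029, and Egr2 changes side, at -0.14 and 0.084. Egr1 and Egr3 lie farthest from the line.

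The promoter windows of 7 members were searched, those of Egr2, Ier3, Ier5, Dusp1, Dusp2, Dusp5 and Nr4a1. Egr1, Egr3 and Ier2 had no entry. Egr2 had several windows and is counted for a motif if any of them holds it, whereas the shares of all windows are per window. The 2 are therefore not the same measure for Egr2. A CArG box was found before the start of Dusp5, with 2 adjoining copies between 82 and 63 bases upstream, and before several of the annotated starts of Egr2, whereas 1.47% of 32851 mouse promoter windows hold such a match. The full cAMP response element TGACGTCA was found in Dusp1, 143 to 136 bases upstream (1.55% of windows). Its core TGACG, a motif added after the promoters were seen, was found in Egr2, Dusp1, Dusp5 and, in 4 copies, in Nr4a1 (17.8% of windows). Dusp1 held 3 matches. Those at 143 to 139 and 140 to 136 bases upstream lie within the full element, and that at 191 to 187 does not. GCGGGGGCG was found in Dusp2, 98 to 90 bases upstream, and in Nr4a1, 60 to 52 bases upstream (2.57% of windows), and it overlaps the Sp1-type box GGGCGG, which all 7 hold (32.7% of windows). CCGGAA, an ETS core, was found in Egr2 and Nr4a1 (12% of windows) and CCAAT in Egr2, Ier3 and Ier5 (33.8% of windows). TATAAA, GCGTGGGCG and AAAGGTCA were found in 0 of the 7 (12.4%, 0.536% and 1.34% of windows). Both strands were searched for each motif, and a match is a run of letters and not a binding site. The CArG box was searched only as CCWWWWWWGG, with W for A or T. Runs that differ from it by a letter were not counted, such as CCTTGTATGG in the windows of Dusp2 and Nr4a1. The window of Dusp2 held neither a CArG box of that exact form nor TGACG, which says only that these letters are not in that stretch.

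Of 49 other immediate early genes 7 rose, 1 fell and 41 did not pass in the authors' deposited table, with a median log2 fold change of 0.21. By the authors' DESeq test 5.97% of all genes were called higher and 1.26% lower. Fosl1, which encodes the AP-1 subunit FRA1, rose 8.72-fold in the authors' deposited table (adjusted p = 2.31e-17) and stood at 23.9, 21.8 and 25.9 normalised reads in the DMSO libraries and 203, 192 and 230.1 in the ICRF-193 libraries. Btg2, an antiproliferative gene, rose 4.41-fold, the polo-like kinase gene Plk2 3.89-fold and Phlda1 2.18-fold in that table (adjusted p = 2.12e-14, 3.75e-12 and 3.18e-04 in the authors' deposited table). Socs3, the feedback inhibitor of LIF and STAT3 signalling, was the member that fell, to 0.577 of its DMSO level (adjusted p = 0.0214 in the authors' deposited table). In limma-voom 9 of the 48 tested genes of this list were called higher and 2 lower, beside 9.84% and 5.88% of all genes; the split term made this 22 and 10, beside 27.2% and 32.4%.

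The other dual specificity phosphatase genes gave 2 higher and 0 lower of 19 in the authors' deposited table, with a median of 0.25. Of all genes, 5.97% were called higher and 1.26% lower there. Dusp15 was at 12.7, 11.9 and 14.0 normalised reads in DMSO-A, DMSO-B and DMSO-C and at 30.1, 46.7 and 48.3 in ICRF-193, and rose 3.23-fold in the authors' deposited table (adjusted p = 0.00790). Dusp26 was at 33.4, 50.6 and 68.1 and at 83.3, 112 and 148 in the same order, and rose 2.26-fold there (adjusted p = 0.0276); limma-voom did not call it by group (adjusted p = 0.0567). For both, the treated libraries were all above the controls, as in 6 of the 19 genes, beside 17.9% of all resolved genes. None of the 19 lay wholly below, beside 15.3%. Of 6 EGR and NR4A relatives and EGR corepressors the authors' DESeq test called 0. At an unadjusted p under 0.05 it called 0, beside 11.5% higher and 5.38% lower of all genes. Limma-voom by group called 0 of the 5 tested, beside 9.84% and 5.88%. Without both libraries A it called 1 of 5 higher and 1 lower, beside 24.1% and 29.6%. The 2 most abundant were Wt1 at 789 and 840.4 and the corepressor gene Nab1 at 733 and 822 normalised reads (deposited means, DMSO and ICRF-193).

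The lists of genes that act before the immediate early genes, or that report ERK activity, had medians under 0, with few calls in the deposited test and more with the split term. Of all genes, the deposited test called 5.97% higher and 1.26% lower, and limma-voom by group 9.84% and 5.88%. At an unadjusted p under 0.05 the shares in the deposited test were 11.5% and 5.38%. Of 28 genes of the MAP kinase cascade the authors' DESeq test called 0 (2 higher and 3 lower at an unadjusted p under 0.05; limma-voom 1 higher and 4 lower), and the median was -0.18 in the authors' deposited table. With the split term limma-voom called 4 of these 28 genes higher and 15 lower, beside 27.2% and 32.4% of all genes. All treated libraries lay below all controls for 13 of the 28, beside 15.3% of genes, and above them for 2, beside 17.9%. Rps6ka1, an RSK kinase gene and among the most abundant of the list, had a log2 fold change of -0.0087 in the authors' deposited table. Of 11 factors of immediate early promoters 1 fell and 10 did not pass (median -0.14). The one that fell was Atf1, a CREB family factor, at 2814, 2753 and 2449.9 normalised reads in DMSO and 1707, 1552 and 1491 in ICRF-193, or 0.593 of DMSO in the authors' deposited table (adjusted p = 0.0301); limma-voom called it too (adjusted p = 0.00836). Sp1 and Yy1, the most abundant of the list, had log2 fold changes of -0.14 and -0.15 in the authors' deposited table. Of 11 ERK feedback genes 1 fell, the ETS factor gene Etv1, to 0.499 of DMSO (adjusted p = 0.00398 in the authors' deposited table), and 10 did not pass (median -0.20), among them Etv5 at -0.23 and Spry4 at 0.23. With the split term 2 promoter factors were higher and 6 lower of 11 in limma-voom, and 3 ERK feedback genes were higher and 6 lower of 11. Both lists stand beside 27.2% higher and 32.4% lower of all genes.

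**Figure D4:**
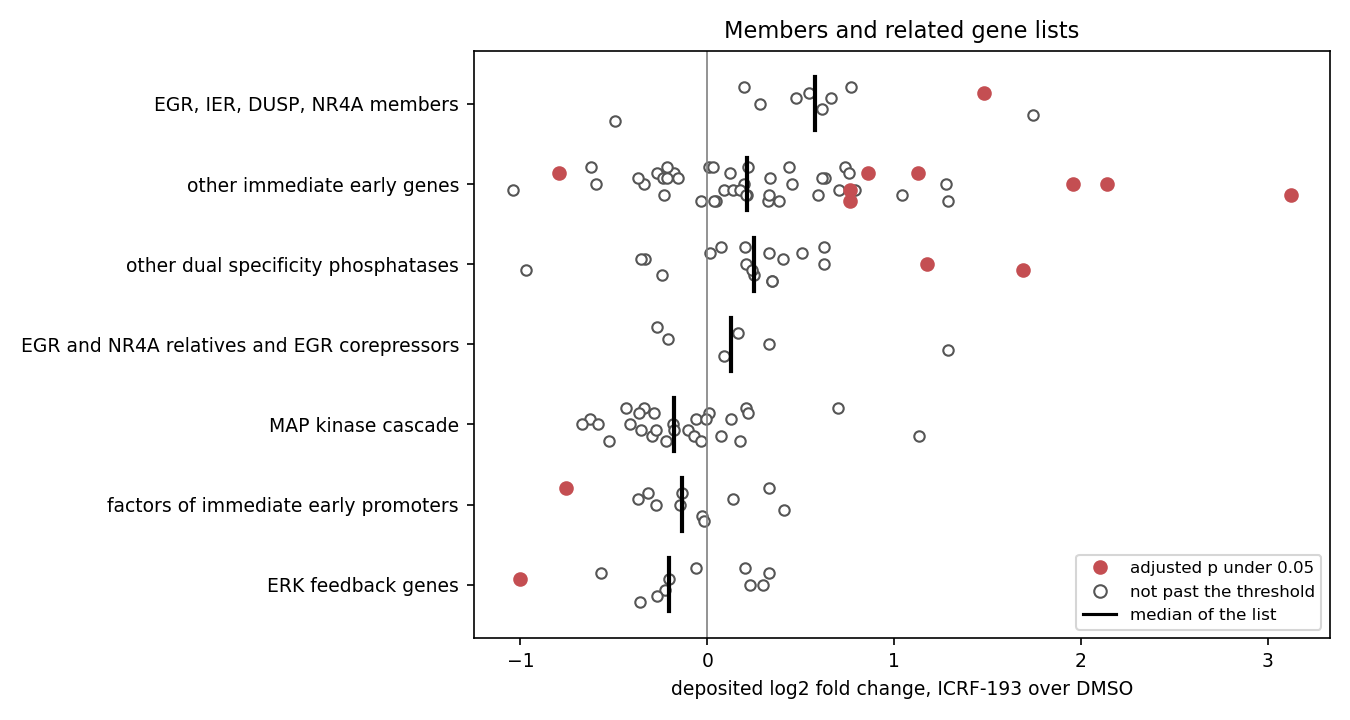
Deposited log2 fold change (ICRF-193 over DMSO) of every gene with reads in the members and 6 related lists, red where the adjusted p was under 0.05, with a bar at the median of each list. The members' median of 0.58 lies to the right of the other lists' medians, which run from -0.20 to 0.25. Members and lists were chosen with earlier results of these data known.

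The genes whose profile over the 6 libraries was most like that of Dusp2 were Neurod1, a neuronal transcription factor gene, Mlkl, the effector of necroptosis, and Tmem229a. Likeness was the root mean square difference of log2 levels, each gene centred on its own mean, among 11711 genes with a mean of at least 100 normalised reads, and it was 0.064, 0.085 and 0.097. Each of the 3 was low in libraries A and higher in the treated libraries, which follows from choosing them for likeness to Dusp2. Mlkl was at 66.9, 148 and 159.9 in DMSO-A, DMSO-B and DMSO-C and 207, 354 and 389 in ICRF-193. Their fold changes and adjusted p-values also follow in large part from that choice and are no separate finding. In the authors' deposited table Neurod1 was at a log2 fold change of 1.37 (adjusted p = 0.00583), Mlkl at 1.34 (adjusted p = 0.0207) and Tmem229a at 1.46 (adjusted p = 0.0308). Neurod1 is also among the neural markers, whose 6 genes went both ways. Neurod1 and Neurog2 rose in the authors' deposited table, while Pax6, a neural progenitor gene, fell to 0.348 of DMSO there (adjusted p = 9.67e-07) and Sox1 was at 0.441 (adjusted p = 0.0537). The neural sum of 7688 to 10357 normalised reads in DMSO and 10389 to 13987 in ICRF-193 was mostly Neurod1, Tubb3 and Nes, and its part was not tested.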

How the data were processed

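Total RNA was sequenced in 2 groups of 3 libraries. TopHat, HTSeq and DESeq are named with mm9 in the submitters' processing notes; versions, annotation and strand are not given in the sources used here. The deposited group columns are a signal, the mean of reads over size factor. The deposited fold change is a ratio of these means and is also given as log2, and the deposited p-values are from the authors' test.

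Each deposited mean has 15 digits and fixes its 3 read numbers, given the steps of the size factors. Whole reads were found by search (numpy 2.4.6, Python 3.11.15): every gene under 5000 had 1 solution (16270 in DMSO, 16687 in ICRF-193), a further 375 and 240 genes were taken at a posterior of at least 0.99, and 135 and 87 were left out, with only an estimate added to depth. Search and fits were tested on simulated data. Recovered reads were fitted with limma-voom (limma 3.58.1, R 4.3.3) and the authors' size factors, for genes reaching 10 reads in 3 or more libraries, with Benjamini-Hochberg adjustment.

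The main test is the deposited one, at an adjusted p of 0.05. Alternatives were limma-voom, no filter, upper quartile (not TMM) or total read scaling, a library split term, left-out libraries, a pseudocount of 10 and the gene strand alone for motifs. Members and lists were chosen with earlier results of these data known. Named were all members; of each other list, up to 4 called genes a direction by fold, or the 2 most abundant as well where fewer than 2 passed; and the 3 genes most like each called member. A gene that this rule names is not reported here. Exonic length is the union of GENCODE M21 basic exons on GRCm38.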

Additional observations from a re-analysis of the deposited data

How the results depend on the processing

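Over 12 limma-voom alternatives (11 for Egr3) and the pseudocount, every member but Egr1 kept the sign of its log2 fold change. That of Dusp5 was near 0 without ICRF-193-A, at 0.038 ± 0.35 (SE). Egr1 was at -0.043 without both libraries A, at -0.32 without ICRF-193-A, and between -0.32 and 0.51 leaving out 1 library. A fit without 1 library A keeps the library A of the other group, so there the difference of A and the treatment cannot be told apart. Members called higher numbered 1 by DESeq (5.97% of all genes), 3 in limma-voom (9.84%) and 2 without the low-count filter (8%). They numbered 3 with upper quartile scaling (11%), 5 with total read scaling (12.7%), 6 with the split term (27.2%) and 5 without both libraries A (24.1%). Leaving out 1 library gave 0 to 4, with 0 without ICRF-193-B (2.66%), 0 without ICRF-193-C (3.12%) and 4 without DMSO-A (11.8%). The share of all genes called moved with the setting as well. Members called lower numbered 0 by DESeq (1.26% of all genes) and 1, Ier2, with the split term (32.4%) and without both libraries A (29.6%). Leaving out 1 library gave 0 to 1 lower (0.609% to 9.32%). Over all genes the deposited 1120 higher became 1890 with total read scaling, 4040 with the split term, 3457 without both libraries A and 388 to 1734 leaving out 1 library. The deposited 237 lower became 874 in limma-voom, 739 without the filter, 589 with upper quartile and 393 with total read scaling, 4812 with the split term, 4238 without both libraries A and 89 to 1373 leaving out 1 library. Total read scaling moved the median of all genes in limma-voom from -0.04 to 0.09, and higher calls made up 82.5% of all calls by DESeq, 62.6% by limma-voom, 73.6% after upper quartile and 82.8% after total read scaling, and 45.6% with the split term. The cause of these shifts was not tested. On the gene strand alone TGACG was in 2 members instead of 4, GCGGGGGCG in 1 instead of 2, CCAAT in 1 instead of 3 and GGGCGG in 6 instead of 7. Egr3 rests on 3 to 22 reads a library, which limits its precision. No paired analysis was possible because the deposited columns carry no replicate number.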
